A study of Mus musculus with 8 samples.

Results

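The collagen genes of the embryonic hippocampus were examined in mouse offspring with intrauterine growth restriction (IUGR) and in sham controls. Members were the genes whose symbol is Col, a number, a and a number, with a mean raw count of at least 10 over all libraries, and 40 of the 42 genes with such a symbol qualified, out of 16397 genes in the table. Just outside the limit were Col6a5, with a mean count of 9.62, and Col6a4, with 6.5, and just inside were Col6a6, with 14.9, and Col20a1, with 15.5. All 40 members entered the test, which covered 13707 protein-coding genes. The members were 11 fibrillar collagens, 7 basement membrane collagens and 22 other collagens.

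RNA came from hippocampi of C57BL/6J mice of both sexes at embryonic day (E) 15.5, as 4 IUGR and 4 sham libraries of ribosome-depleted total RNA. In the IUGR group, the dam had carried a micro-osmotic pump releasing U-46619, an analog of the vasoconstrictor thromboxane A2, from E12.5, as a model of hypertensive pregnancy. The sham dam carried a pump with vehicle, so both groups share the surgery and the pump. Library names began with T1 in every IUGR sample and with S1 or S3 in the sham samples. What the prefixes stand for is not given in the sources used here, so prefix and treatment cannot be told apart. Nothing in those sources says which embryos shared a dam, and the p-values measure the spread between these samples only.

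Collagens are trimeric proteins of the extracellular matrix. Fibrillar collagens (types I, II, III, V, XI, XXIV and XXVII) assemble into the cross-striated fibrils of connective tissue, type IV forms the sheet-like network of basement membranes, and types XV and XVIII are proteoglycans attached to those membranes. Fibril-associated collagens with interrupted helices decorate fibril surfaces, type VI forms beaded filaments, type VIII forms hexagonal lattices, and types XIII, XVII, XXIII and XXV span the cell membrane. In the embryonic brain, the neural tissue itself holds little fibrillar collagen. Collagen is known from the meninges, the walls of vessels, the stroma of the choroid plexus and the basement membrane under the pia.

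Total counts were between 11212632 and 16672463 per library, of which collagens took 0.0999% to 0.539% of the counts on tested genes. The 9 hippocampal and pallial markers reported, among them Emx1, Lhx2 and Prox1, were detected, with summed levels of 1103 to 1401 CPM in IUGR against 1114 to 1660 CPM in sham libraries. Marker sets of cell types bordering the hippocampus differed widely between libraries, and their levels stand beside the results they move with. In RNA from whole tissue, fewer cells of a type and less RNA per cell cannot be told apart. Values per library are given as CPM (counts scaled to 1000000) on normalised library sizes, in the order T1-1, T1-3, T1-4 and T1-5 for IUGR and S1-4, S1-6, S3-1 and S3-4 for sham. A gene was called when edgeR's quasi-likelihood test gave a Benjamini-Hochberg adjusted p of at most 0.05 over all tested genes together with a log2 fold change of 1 or more in size.

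Promoter windows of the most highly expressed fibrillar and type IV chains are shown first, because these chains were the most abundant of their classes and the type IV genes lie head to head, and those of Col9a2, Col8a2 and Col4a4 are added, chosen after their values were seen, because their groups did not overlap. RefSeq (GRCm38.p6) windows of 250 bases before to 50 bases after a start site were held for 32 of the 40 members, as 35 windows. None was held for Col9a3 or Col2a1. RefSeq start sites need not match the GENCODE gene spans given below. The Col1a2 window begins at 4505368, inside the gene span that begins at 4504814. Capitals mark 3 motifs on either strand, namely the CCAAT box (CCAAT or ATTGG) and the GC box (GGGCGG or CCGCCC) and the TATA motif (TATAAA or TTTATA), and adjoining capitals in Col8a2 are overlapping GC boxes.

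Col3a1, chr1:45311288-45311587, plus strand: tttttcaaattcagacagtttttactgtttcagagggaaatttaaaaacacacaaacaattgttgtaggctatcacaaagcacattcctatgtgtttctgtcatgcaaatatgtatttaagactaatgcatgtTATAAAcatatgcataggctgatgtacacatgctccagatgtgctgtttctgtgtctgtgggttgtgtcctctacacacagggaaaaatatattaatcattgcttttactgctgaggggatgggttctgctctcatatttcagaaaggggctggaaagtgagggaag

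Col1a2, chr6:4505368-4505667, plus strand: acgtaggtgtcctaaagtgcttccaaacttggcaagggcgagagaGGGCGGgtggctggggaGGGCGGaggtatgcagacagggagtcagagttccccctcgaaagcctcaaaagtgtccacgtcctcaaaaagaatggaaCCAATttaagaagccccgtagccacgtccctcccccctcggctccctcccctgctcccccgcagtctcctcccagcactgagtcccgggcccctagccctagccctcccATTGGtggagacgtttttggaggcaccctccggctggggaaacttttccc

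Col4a1, chr8:11312777-11313076, minus strand: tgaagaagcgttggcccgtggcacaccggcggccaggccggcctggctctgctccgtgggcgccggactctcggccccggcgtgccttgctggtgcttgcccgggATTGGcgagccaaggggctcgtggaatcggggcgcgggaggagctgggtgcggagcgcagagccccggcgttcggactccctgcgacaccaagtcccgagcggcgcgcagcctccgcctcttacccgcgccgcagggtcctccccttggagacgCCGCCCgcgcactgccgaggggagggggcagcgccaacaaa

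Col4a2, chr8:11312555-11312854, plus strand: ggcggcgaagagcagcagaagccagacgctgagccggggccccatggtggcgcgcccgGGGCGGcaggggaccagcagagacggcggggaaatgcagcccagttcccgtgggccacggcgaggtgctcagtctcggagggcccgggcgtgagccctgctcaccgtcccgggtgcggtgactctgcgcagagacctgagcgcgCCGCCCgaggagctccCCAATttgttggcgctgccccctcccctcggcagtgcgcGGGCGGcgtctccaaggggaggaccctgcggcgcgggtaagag

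Col9a2, chr4:121039316-121039615, plus strand: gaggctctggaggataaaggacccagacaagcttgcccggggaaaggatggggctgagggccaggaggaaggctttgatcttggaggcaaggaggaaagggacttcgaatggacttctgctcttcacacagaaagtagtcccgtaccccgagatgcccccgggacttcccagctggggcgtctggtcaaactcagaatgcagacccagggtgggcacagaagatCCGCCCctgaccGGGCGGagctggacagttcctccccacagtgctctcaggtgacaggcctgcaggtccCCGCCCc

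Col8a2, chr4:126286544-126286843, plus strand: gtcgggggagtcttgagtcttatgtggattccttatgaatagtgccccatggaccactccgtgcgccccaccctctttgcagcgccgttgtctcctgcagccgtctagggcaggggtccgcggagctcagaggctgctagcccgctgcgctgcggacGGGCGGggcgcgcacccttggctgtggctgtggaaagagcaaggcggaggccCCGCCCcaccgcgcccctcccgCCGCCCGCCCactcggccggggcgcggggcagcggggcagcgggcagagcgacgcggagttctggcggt

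Col4a4, chr1:82586800-82587099, minus strand: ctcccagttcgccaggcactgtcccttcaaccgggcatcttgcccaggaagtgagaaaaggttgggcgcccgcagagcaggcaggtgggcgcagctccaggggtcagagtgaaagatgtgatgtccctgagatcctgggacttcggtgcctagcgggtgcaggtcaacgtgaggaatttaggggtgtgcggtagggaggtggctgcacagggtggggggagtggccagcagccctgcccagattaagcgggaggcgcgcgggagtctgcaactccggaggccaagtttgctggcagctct

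The GC box was present in 21 of the 35 collagen windows (60%) and in 35.7% of all 32851 windows of the same length. The CCAAT box was present in 12 of 35 (34.3%) against 37.4% of all, and the TATA motif in 4 of 35 (11.4%) against 13.6%. The Col3a1 window held a TATA motif, no GC box and 37.7% G and C, while the Col8a2 window held 4 GC boxes and 71.7% G and C. The Col4a4 window held none of the 3 motifs at 63.3% G and C. The windows of Col4a1 and Col4a2, whose start sites lie 21 bases apart on opposite strands, shared 78 bases. Over all windows, G and C averaged 53.8%, and the collagen windows ran from 37.7% (Col3a1) to 75% (Col5a1). The motif shares were not adjusted for base composition. These matches describe letters in a window and not binding.

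Of the 40 collagen genes, 1 was called lower in IUGR (Col9a3) and none was called higher by edgeR, and 9 had an unadjusted p under 0.05. Over all tested genes, 1.36% were called lower and 0.102% higher, and 11.1% had an unadjusted p under 0.05. DESeq2's Wald test called 3 members lower (Col9a3, Col9a2 and Col4a4) and none higher, against 2.49% and 0.613% of the 13692 genes to which it gave an adjusted p. By sign, 16 members had a lower and 24 a higher log2 fold change in IUGR, with a median of 0.20 against -0.02 for all tested genes. The medians were 0.24 for fibrillar, -0.08 for basement membrane and 0.21 for other collagens. Leaving out T1-3 alone brought these medians to -0.03, -0.38 and -0.18, and leaving out T1-4 alone brought them to 0.50, 0.14 and 0.47.

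**Figure D1:**
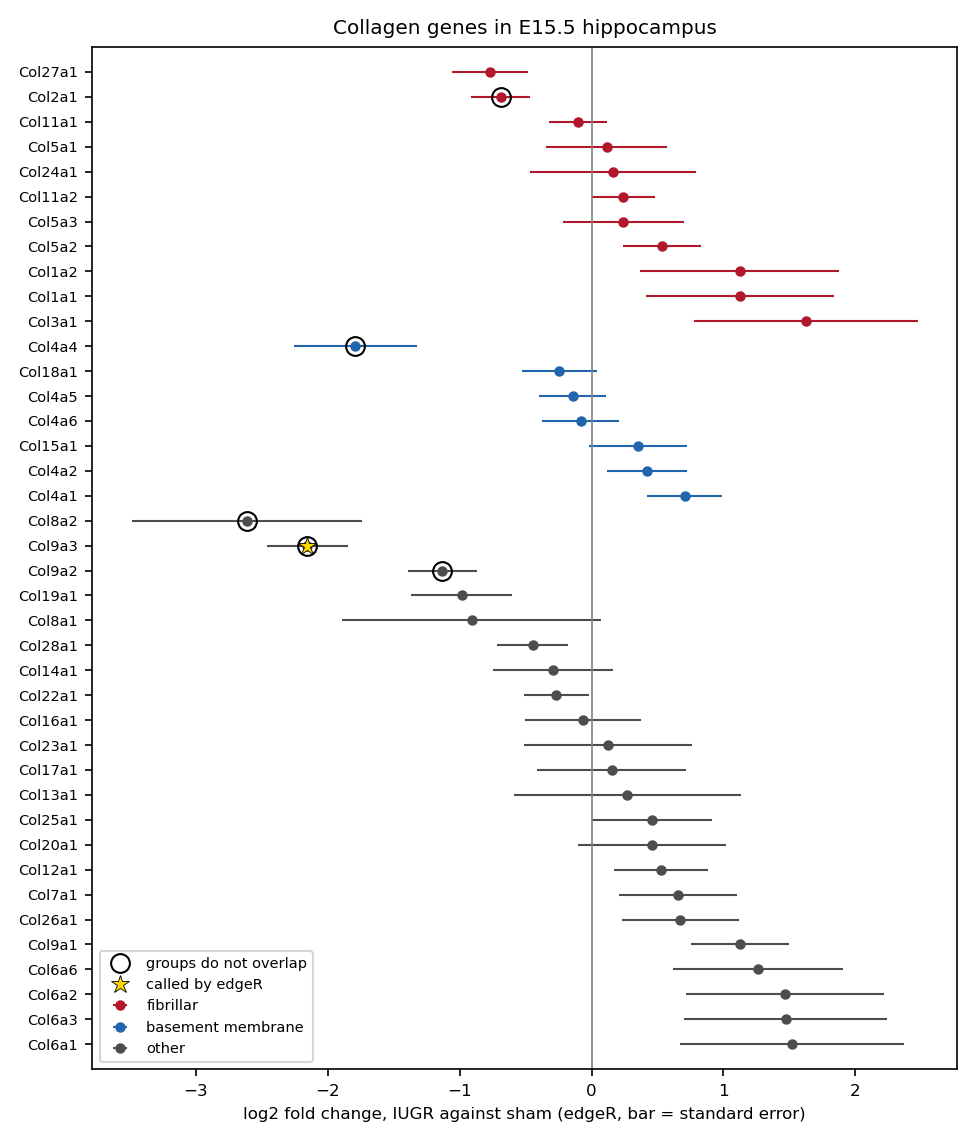
Log2 fold change of each collagen gene, IUGR against sham, with the standard error from edgeR; colours give the class, circles mark the 5 genes whose IUGR and sham values do not overlap, and the star marks Col9a3, the gene called. The 5 circled genes are all lower in IUGR, and the largest positive values (Col3a1, Col6a1) have standard errors above 0.8.

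In 5 members all IUGR libraries lay below all sham libraries, and in no member did all lie above. Over all tested genes, 5.06% were lower and 2.08% higher without overlap, and 5 of 40 is a larger share than the former. Leaving out a library can only raise such counts. Without T1-3, 8 members were lower without overlap (7.25% of all tested genes) and none higher (2.45%), and without T1-4, 5 were lower (5.75%) and 5 higher (4.1%). Without both, 9 were lower (8.53%) and 6 higher (5.41%). The 5 genes were Col9a3 and Col9a2 of type IX, Col8a2 of type VIII, Col4a4 of type IV and Col2a1 of the fibrillar class.

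Type IX collagen is a fibril-associated heterotrimer of α1, α2 and α3 chains that coats type II collagen fibrils. The log2 fold changes of its 3 chains differed in sign. Col9a3 (chr2:180597790-180622189 in GRCm38, plus strand) had 17.4, 46.3, 20.5 and 35.1 CPM in IUGR and 167, 123, 143 and 98.8 CPM in sham. The highest IUGR library stayed below the lowest sham library, and the mean fell from 133 ± 29.1 to 29.8 ± 13.4 CPM (SD, n = 4 each). The log2 fold change was -2.15 (SE 0.31, adjusted p = 0.0106 by edgeR), which is 4.45-fold lower. The call held in all 8 fits that left out 1 library, with log2 fold changes from -2.42 to -1.93 and adjusted p from 0.00867 to 0.0435, and it was lost when the IUGR libraries were compared with the S1 or the S3 sham libraries alone, where 0 and 2 of all tested genes were called.

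Col9a2, the α2 chain (chr4:121039385-121055322, plus strand), had 7.42, 13.8, 6.83 and 6.62 CPM in IUGR and 22.3, 16.8, 21.1 and 16.1 CPM in sham. T1-3 was the nearest to the sham libraries and still below them. Its log2 fold change was -1.13 (SE 0.26) with an edgeR adjusted p of 0.0658, just above the threshold, and it was called without T1-3 (adjusted p = 0.0124) and by DESeq2. Col9a1, the α1 chain, was the least abundant and had the opposite sign. It had 2.77, 4.36, 1.69 and 4.56 CPM in IUGR and 2.03, 1.21, 1.33 and 1.57 CPM in sham, with T1-4 inside the sham range. Its log2 fold change of 1.13 (SE 0.37) was not called (edgeR adjusted p = 0.217).

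The chains were therefore compared within each library, which needs no scaling between libraries. Per kilobase of transcript, the ratio of Col9a3 to Col9a1 was 7.89 to 15.3 in IUGR and 79.3 to 135 in sham. The ratio of Col9a3 to Col9a2 was 2.25 to 5.09 in IUGR and 5.89 to 7.20 in sham, and that of Col9a2 to Col9a1 was 1.90 to 5.31 and 13.5 to 20.7. None of the 3 ratios overlapped between the groups. These ratios were taken after the levels of the chains were seen, and each follows from the others, so they are not separate support for the levels. In the other 10 chain ratios examined, among them Col1a1 to Col1a2, Col4a1 to Col4a2 and Col6a1 to Col6a2, the groups overlapped. Exons of Col9a3 overlap exons of Tcfl5 on the other strand, and whether counting used the strand is not given in the sources used here. Tcfl5 was at 1.26 to 3.20 CPM in every library, with a log2 fold change of -0.07 (SE 0.38).

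Type VIII collagen is a short-chain collagen of α1 and α2 chains, known from the basement membrane of the corneal endothelium and from vessel walls. Col8a2 (chr4:126286793-126314330, plus strand) had 2.62, 52.7, 1.18 and 32.5 CPM in IUGR and 162, 129, 161 and 96.7 CPM in sham. All IUGR libraries lay below the sham range, but they differed among themselves by 44.7-fold, T1-1 and T1-4 being low and T1-3 and T1-5 intermediate. Its log2 fold change of -2.61 was the most negative among the members, with a standard error of 0.87 and an edgeR adjusted p of 0.224, and it was not called in any fit. Col8a1 had 2.25, 43.3, 0.25 and 8.90 CPM in IUGR and 51.1, 24.0, 14.1 and 14.8 CPM in sham. Here T1-3 lay inside the sham range, and the log2 fold change was -0.91 (SE 0.98, edgeR adjusted p = 1.0).

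Choroid plexus epithelium markers moved with Col9a3 and Col8a2. All 8 tested markers of the 10 listed were lower in IUGR by sign, 2 of them called (Folr1 and Otx2), the median log2 fold change being -3.07. Their summed level was 79.7, 1300, 55.4 and 857 CPM in IUGR against 5470 to 12097 CPM in sham. Most of that was Ttr, the transthyretin gene, and without it the sum was 54.3, 334, 45.2 and 263 CPM in IUGR against 850 to 1246 CPM in sham. The order of the IUGR libraries by this sum, T1-3, T1-5, T1-1 and T1-4, was also their order by Col8a2. For Col9a3, T1-3 and T1-5 were the higher ones, but T1-4 (20.5 CPM) lay above T1-1 (17.4 CPM). Other members without overlap had another order. Col9a2 and Col2a1 were lowest in T1-5, at 6.62 and 44.5 CPM, and Col4a4 was lowest in T1-3, at 0.92 CPM. No listed marker was at 0 in any library, and the part of these cells in the collagen results was not tested. Among cartilage markers, Matn1, Matn3, Comp and Cytl1 had no row in the table, Acan and Ucma stayed at or below 1.22 CPM in every library, Hapln1 was at 0.30 to 3.07 CPM in IUGR against 0.57 to 1.85 CPM in sham (log2 fold change 0.17, SE 0.63), and Cnmd, which encodes chondromodulin, was called lower (log2 fold change -1.82, edgeR adjusted p = 0.0354).

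**Figure D2:**
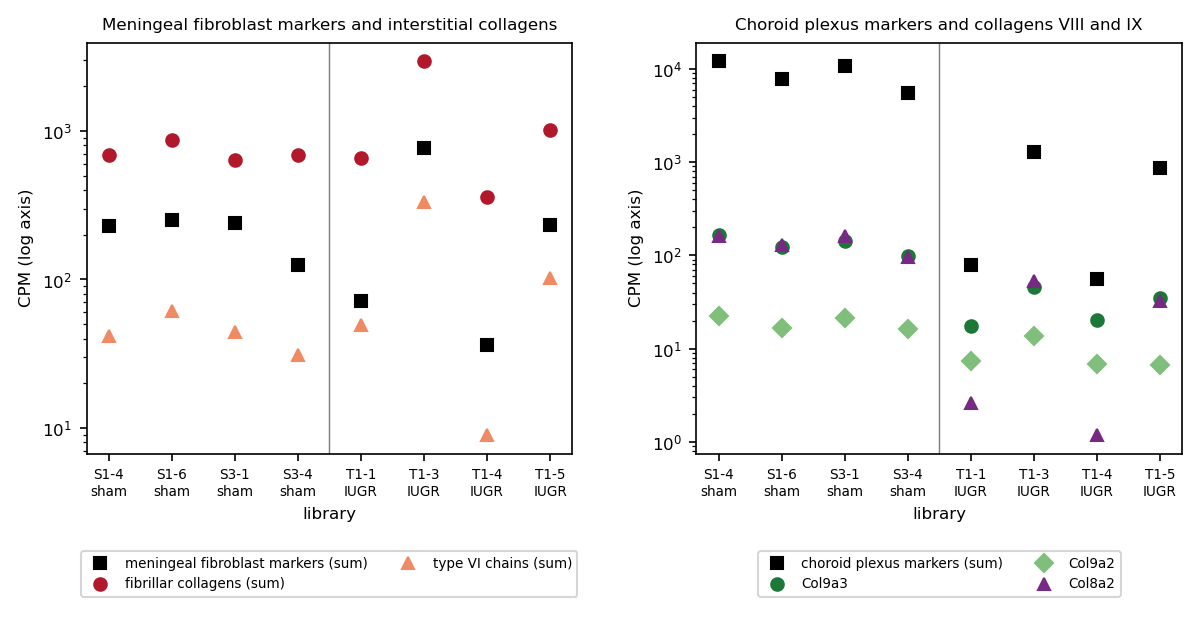
Levels per library in CPM on a log axis. Left, summed meningeal fibroblast markers, fibrillar collagens and type VI chains, all 3 highest in T1-3 and lowest in T1-4; right, summed choroid plexus markers with Col9a3, Col9a2 and Col8a2, all lower in the 4 IUGR libraries than in the 4 sham libraries.

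Basement membrane collagens showed no call, with 4 members lower and 3 higher by sign. Col4a1 and Col4a2 encode the α1 and α2 chains of the ubiquitous type IV network, and they were the most abundant collagens of this class per length (46.2 and 28.9 CPM per kilobase over all libraries), followed by Col18a1 (19.3). The neighbours lie head to head at chr8:11198423-11312826 (Col4a1, minus strand) and chr8:11312805-11449287 (Col4a2, plus strand), and the annotated genes overlap by 22 bases. Col4a1 had 328, 649, 222 and 318 CPM in IUGR and 267, 254, 217 and 192 CPM in sham, so that 3 IUGR libraries exceeded every sham library and T1-4 did not. Its log2 fold change of 0.71 (SE 0.28) had an edgeR adjusted p of 0.355. Col4a2 had 171, 391, 145 and 145 CPM in IUGR and 158, 197, 137 and 146 CPM in sham, with only T1-3 outside the sham range (log2 fold change 0.42, SE 0.31, adjusted p = 0.844).

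Col18a1, the precursor of endostatin, had 88.4, 139, 48.8 and 61.7 CPM in IUGR and 112, 93.0, 84.1 and 111 CPM in sham, with IUGR libraries on both sides of the sham range (log2 fold change -0.24, SE 0.28). Col4a4 encodes the α4 chain of a type IV network known from the kidney glomerulus and the eye, and it was a low gene with a mean count of 38.1. It had 0.97, 0.92, 0.93 and 2.74 CPM in IUGR and 6.01, 7.19, 3.37 and 2.78 CPM in sham. T1-5 reached the level of S3-4, the lowest sham library, without passing it. Its log2 fold change of -1.79 (SE 0.47) had an edgeR adjusted p of 0.102, and it was called without T1-5 (adjusted p = 0.0241) and by DESeq2. The remaining members, Col4a5 (-0.14), Col4a6 (-0.08) and Col15a1 (0.35), had log2 fold changes no larger than their standard errors of 0.25 to 0.37. Summed type IV chains were at 420 to 1182 CPM in IUGR against 450 to 553 CPM in sham.

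Vascular endothelial markers, all 12 of which were measured, summed to 261 to 425 CPM in IUGR against 256 to 370 CPM in sham, with 9 higher by sign and none called. Pericyte and mural cell markers summed to 343 to 545 CPM in IUGR against 288 to 378 CPM in sham, with 9 of 10 higher by sign and none called. In both sets T1-3 had the highest sum, as it did for Col4a1 and Col4a2. The part of vessel cells in the type IV values was not tested.

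Fibrillar collagens also showed no call, with 3 members lower and 8 higher by sign. Col3a1, Col1a2 and Col5a2 had the highest levels per length (54.4, 29.9 and 27.5 CPM per kilobase), followed by Col1a1 (17.6) and Col2a1 (17.1). Col3a1 (chr1:45311538-45349706, plus strand), the single chain of type III collagen, had 187, 1310, 22.5 and 310 CPM in IUGR and 167, 173, 164 and 89.1 CPM in sham. The IUGR libraries spanned 58.2-fold and enclosed the sham range, which spanned 1.94-fold. The log2 fold change of 1.63 was the largest positive value among the members, with a standard error of 0.85 and an edgeR adjusted p of 0.576, and it was 0.25 without T1-3.

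Type I collagen, the main fibril of skin and bone, followed the same libraries. Col1a2 (chr6:4504814-4541544, plus strand) had 95.2, 585, 17.4 and 180 CPM in IUGR and 109, 144, 74.5 and 76.3 CPM in sham, and the IUGR values again enclosed the sham values. Its log2 fold change was 1.12 (SE 0.75, edgeR adjusted p = 0.785), and it was -0.03 when T1-3 was left out. Col1a1 had 15.3 to 340 CPM in IUGR against 37.3 to 121 CPM in sham (log2 fold change 1.12, SE 0.71, adjusted p = 0.747, and 0.25 without T1-3). Col5a2, which encodes a type V chain that is built into type I fibrils and governs their diameter, had 128, 382, 148 and 203 CPM in IUGR and 138, 149, 148 and 160 CPM in sham. Its sham libraries agreed within 1.16-fold, with T1-3 and T1-5 above them and T1-1 below (log2 fold change 0.53, SE 0.29, adjusted p = 0.631).

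Col2a1, the chain of cartilage collagen, was the fibrillar gene whose groups did not overlap. It had 77.8, 82.9, 61.4 and 44.5 CPM in IUGR and 87.0, 116, 85.7 and 142 CPM in sham. The gap between T1-3 and S3-1 was small, and the log2 fold change of -0.69 (SE 0.23, edgeR adjusted p = 0.215) was not called. Col27a1 had a similar log2 fold change of -0.77 (SE 0.29), with T1-3 inside the sham range of 9.88 to 12.7 CPM. The other fibrillar members, Col11a1, Col5a1, Col24a1, Col11a2 and Col5a3, had log2 fold changes between -0.10 and 0.24.

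Among the other collagens, the type VI chains Col6a1, Col6a2 and Col6a3 had log2 fold changes of 1.52, 1.47 and 1.47 (SE 0.85, 0.75 and 0.77), and none was called (edgeR adjusted p 0.643, 0.557 and 0.578). Type VI forms the beaded microfilaments around cells in connective tissue. Col6a1 ran from 1.35 CPM in T1-4 to 89.8 CPM in T1-3, around the sham range of 6.49 to 13.6 CPM, and without T1-3 its log2 fold change was 0.08. Col6a2 and Col6a3 ran from their lowest value of all libraries in T1-4 to their highest in T1-3, over 29.1-fold and 37.0-fold. Col6a6 was a low gene whose mean count of 14.9 rested on T1-5, with 50 counts and 3.80 CPM, against 0.36 to 1.21 CPM in sham, so the limit on the mean count favours its higher value in IUGR (log2 fold change 1.26, SE 0.64, not called).

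Col26a1, next in this class by level per length (11.8 CPM per kilobase, after 26.7 for Col9a3 and 18.4 for Col8a2), had 27.4, 88.0, 15.3 and 27.4 CPM in IUGR and 27.2, 24.8, 26.7 and 20.8 CPM in sham. T1-3 lay far above the sham range and T1-4 below it, and T1-1 and T1-5 lay just above its upper end of 27.2 CPM (log2 fold change 0.67, SE 0.44, edgeR adjusted p = 0.768). Of the fibril-associated members besides type IX, Col19a1 (-0.99, SE 0.38), Col14a1, Col22a1 and Col16a1 were lower by sign and Col20a1 and Col12a1 higher, with none called. The 4 transmembrane members, Col13a1, Col17a1, Col23a1 and Col25a1, had log2 fold changes of 0.13 to 0.46, all below or close to their standard errors of 0.45 to 0.86. Col28a1 (-0.45, SE 0.27) and Col7a1, the anchoring fibril chain (0.66, SE 0.45), complete the class.

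**Figure D3:**
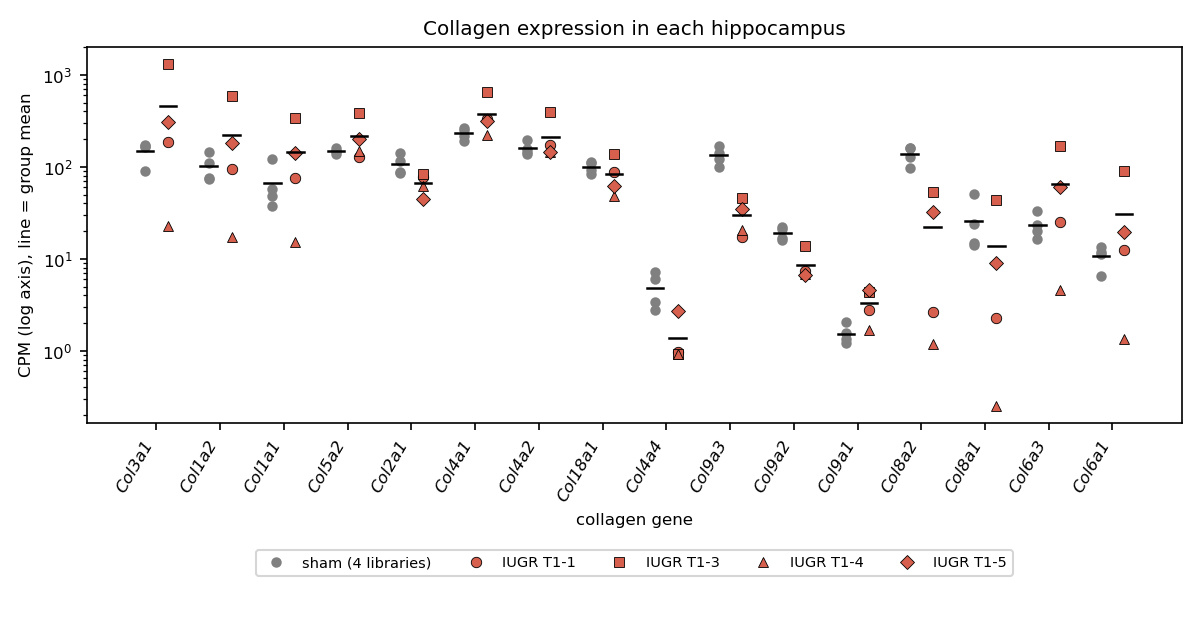
CPM per library on a log axis for 16 collagen genes, sham in grey and the 4 IUGR libraries by symbol, with lines at the group means. T1-3 (square) and T1-4 (triangle) sit at opposite ends for Col3a1, Col1a2, Col1a1, Col6a3 and Col6a1, whereas all IUGR values lie below sham for Col9a3, Col9a2, Col8a2, Col4a4 and Col2a1.

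The spread between libraries was compared in each group. The standard deviation of log2 CPM was larger among IUGR than among sham libraries in 36 of 40 collagens (90.0%), against 52.6% of all tested genes. It was larger in all 11 fibrillar and all 7 basement membrane members and in 18 of 22 others, Col19a1, Col22a1, Col25a1 and Col28a1 being the exceptions. The median standard deviation over the members was 0.85 in IUGR and 0.34 in sham, while over all tested genes both were 0.26. By class, the median was 0.72 in IUGR and 0.35 in sham for fibrillar, 0.68 and 0.22 for basement membrane, and 1.05 and 0.39 for other collagens. With T1-3 left out, 34 of 40 members kept the larger IUGR spread, with T1-4 left out 35, and with both left out 24, against 47.5%, 53.1% and 46.3% of all tested genes. The members share libraries, and no test was made of these counts.

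**Figure D4:**
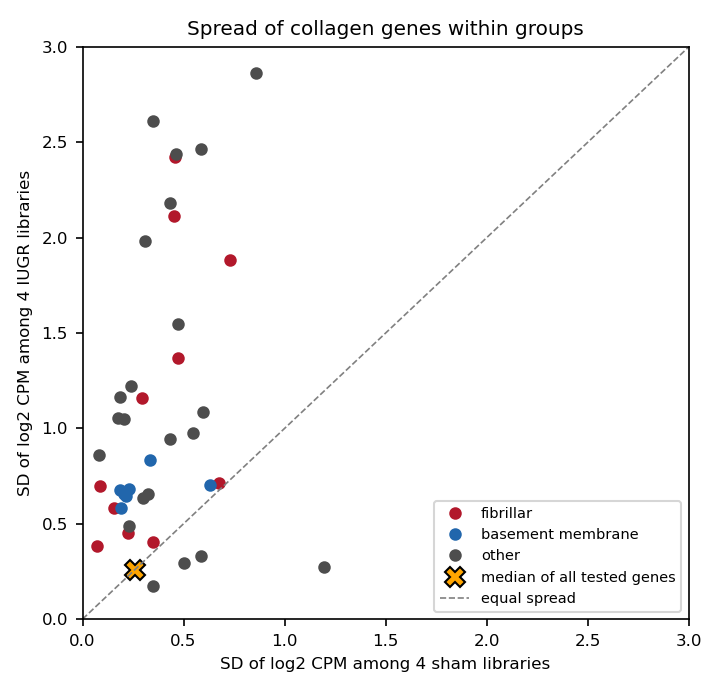
Standard deviation of log2 CPM among the 4 IUGR libraries (vertical) against that among the 4 sham libraries (horizontal), 1 point per collagen gene coloured by class, with the median of all tested genes as a cross at 0.26 on both axes. Of 40 points, 36 lie above the line of equal spread.

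Both ends of the IUGR group were set by the same libraries. Among the IUGR libraries, T1-3 was the highest in 31 of 40 members and T1-4 the lowest in 30, and both held in 25 members (62.5%), against 13.4% of all tested genes. Both held in 7 of 11 fibrillar, 6 of 7 basement membrane and 12 of 22 other collagens. Summed collagen was 1595, 5202, 1014 and 2049 CPM in IUGR against 1685 to 2095 CPM in sham. The summed levels, which rest mostly on the abundant genes, spread by 8.28-fold for summed fibrillar, 2.83-fold for summed basement membrane and 4.93-fold for summed other collagens in IUGR, against 1.37-fold, 1.18-fold and 1.63-fold in sham. Within the other collagens, summed type VI chains spread by 37.2-fold in IUGR and 1.98-fold in sham.

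The ratio of summed fibrillar to basement membrane CPM was 0.98, 2.21, 0.76 and 1.62 in IUGR and 1.09 to 1.32 in sham, so the IUGR libraries fell on both sides. The share of collagen CPM that came from the other collagens was 16.2% to 19.5% in IUGR and 25.3% to 34.4% in sham, without overlap. Their summed level did overlap, at 258, 915, 186 and 399 CPM in IUGR against 427 to 695 CPM in sham, with T1-3 above every sham library. The low share in T1-3 stood beside 2952 CPM of fibrillar collagen, the highest of all libraries. Col9a3 and Col8a2, named above as not overlapping, averaged 133 and 137 CPM in sham and 29.8 and 22.3 CPM in IUGR. The other collagens summed to a mean of 569 CPM in sham and 439 CPM in IUGR, so their share is not a result separate from these genes.

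Meningeal fibroblast markers followed the same order of libraries. All 11 markers were measured, 10 with a higher and 1 (Ogn) with a lower log2 fold change, none called, and their sum was 71.3, 765, 36.2 and 234 CPM in IUGR against 125 to 250 CPM in sham. Lum, Dcn and Ogn of this set are also proteoglycans that bind collagen. Of the 11, 10 were highest of all libraries in T1-3 and 9 lowest in T1-4. Erythroid markers, which come from blood in the tissue, were highest in T1-3 for 6 of 7 genes and lowest in T1-4 for 6 of 7, at a summed 2115 and 648 CPM, with 1052 to 1622 CPM in sham. The part of these cells in the spread of the collagens was not tested.

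**Figure D5:**
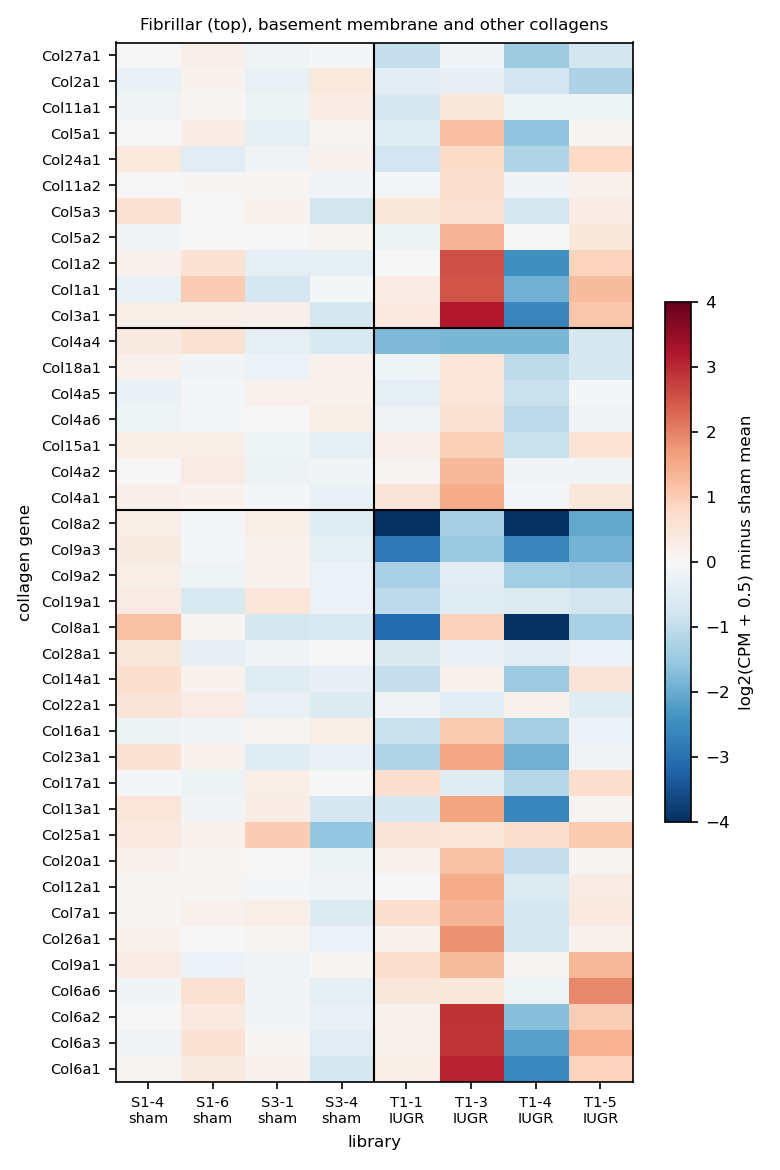
Log2(CPM + 0.5) of each collagen gene minus its sham mean, by library, with lines between fibrillar (top), basement membrane and other collagens and between sham and IUGR. The T1-3 column is mostly above and the T1-4 column mostly below the sham mean. Col8a2, Col9a3, Col9a2 and Col4a4 are below it in all IUGR columns, as are Col2a1, Col27a1, Col19a1 and Col28a1.

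Genes that build, bind or degrade collagen were read from 6 lists, in which 73 tested genes gave 1 call, a share close to that of all tested genes (1.36% lower and 0.102% higher). Of 21 genes for chain modification and folding, such as prolyl and lysyl hydroxylases and the chaperone Serpinh1, 17 were lower and 4 higher by sign, the median log2 fold change being -0.13, and none was called. P3h4 (-0.69, SE 0.28) and Colgalt2 (-0.53, SE 0.32) had the largest values among those with a mean count of at least 50. Of 12 tested genes for procollagen processing and cross-linking, 7 were lower and 5 higher, and Pcolce2, an enhancer of the proteinase that trims procollagen, was called lower. It had 2.70, 3.44, 2.53 and 5.32 CPM in IUGR and 13.7, 9.70, 10.3 and 8.06 CPM in sham (log2 fold change -1.57, SE 0.29, edgeR adjusted p = 0.0279), without overlap, and with 1 library left out the log2 fold change stayed between -1.84 and -1.39, while the adjusted p passed 0.05 in 6 of the 8 fits (0.0529 to 0.1).

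None of the genes in the other 4 lists was called. Of 7 fibril-binding proteoglycans, 3 were lower and 4 higher (median 0.55), with Prelp at -1.50 (SE 0.51) and Ogn at -1.49 (SE 0.65). Of 8 collagen receptors, 3 were lower and 5 higher (median 0.27), with the integrin chains Itga11 at 1.15 (SE 0.65) and Itga1 at 0.59 (SE 0.19). Of 14 other basement membrane components, 4 were lower and 10 higher (median 0.29), with the laminin chains Lama5 at -1.15 (SE 0.30) and Lama2 at 1.10 (SE 0.59). Of 11 genes of collagen breakdown, 6 were lower and 5 higher (median -0.04), with Ctsk, the cathepsin K gene, at 1.11 (SE 0.70) and Timp3, a metalloproteinase inhibitor, at -0.69 (SE 0.32).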

How the data were processed

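Total RNA (TruSeq Stranded, Ribo-Zero Gold) was sequenced by the authors as single reads and aligned to GRCm38 (mm10); the submitters' processing notes name Novoalign 2.8. The counting program, annotation release and strand setting are not given in the sources used here. The authors deposited raw counts per gene, 1 column per library, without normalization, and each gene reaches 10 counts in at least 1 library. Ensembl identifiers were looked up in GENCODE M21, where 273 of 16397 had no match. The comparison took the 13707 protein-coding genes whose mean count was 10 or more and below 50000, and used edgeR 4.0.16 in R 4.3.3 (TMM, quasi-likelihood test, Benjamini-Hochberg adjustment), all 8 libraries entering and no covariate. The script was tested on simulated data in which all genes had the same spread setting. That test does not cover genes as variable as the collagens. Log2 CPM used a prior count of 2, and values per kilobase used the length of the principal transcript.

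Permuting 4 against 4 libraries gives a smallest exact two-sided p of 0.0286, and single values were not tested that way. Alternatives were DESeq2 1.42.0, other size factors and filters, all biotypes, each library left out, and S1 or S3 sham libraries alone. Members, classes and lists were chosen with earlier results of these data known. Values per library are given for members called, members without overlap and the 3 members of each class highest per length, and for further genes (Col9a1, Col8a1, Col1a1, type VI) chosen after their values were seen. Of each companion list, called genes or otherwise those with the largest change at a mean count of at least 50 are named. Count and CPM precision is limited by the number of libraries. Of the neural markers first listed, a gene is not reported here.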

Additional observations from a re-analysis of the deposited data

Results flagged for a closer look

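Each collagen gene was examined in each group for a library far from the other 3, by Dixon's ratio, which chance passes in about 1 in 20 groups, and 6 of 80 gene and group combinations passed. In IUGR library T1-3, Col4a2 was at 391 CPM (other IUGR libraries 145 to 171), Col26a1 at 88.0 CPM (15.3 to 27.4) and Col9a2 at 13.8 CPM (6.62 to 7.42). In IUGR library T1-5, Col4a4 was at 2.74 CPM (0.92 to 0.97) and Col6a6 at 3.80 CPM (0.51 to 1.05). In sham library S3-4, Col3a1 was at 89.1 CPM, below 164 to 173 CPM in the other sham libraries.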

How the results depend on the processing

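No collagen gene was called higher by edgeR or DESeq2 in any alternative. The class medians changed sign with 1 library left out, running from -0.029 to 0.50 for fibrillar, -0.38 to 0.14 for basement membrane and -0.18 to 0.49 for other collagens, and that of basement membrane collagens was also 0.18 at a mean count of at least 50 and 0.054 against S1 alone. The number called lower was 1 with other normalizations, filters and biotypes, 3 with DESeq2, 1 to 2 when 1 library was left out, and 0 against the S1 or the S3 sham libraries alone, where 2 sham libraries remain. Over all genes, calls numbered 200 at first, 425 with DESeq2, 73 at a mean count of at least 50, 41 to 298 when 1 library was left out, and 0 and 2 against S1 and S3 alone. The single call among companion genes (Pcolce2) became 2 calls with DESeq2, 0 at a mean count of at least 50, 0 to 2 when 1 library was left out, and 0 against S1 or S3 alone, while its log2 fold change stayed at -1.54 at a mean count of at least 50, -1.74 against S1 and -1.36 against S3. In counts added after seeing the data, 5 to 8 members were lower without overlap when T1-3 or T1-4 was left out (5.75% to 7.25% of all tested genes) and 9 without both (8.53%), and 0 to 5 were higher (2.45% to 4.1%) and 6 without both (5.41%). The median over all genes moved by less than 0.1 (log2) under each other scaling. Low depth limits Col6a6, Col20a1, Col17a1 and Col24a1, with mean counts under 20. No paired analysis was possible because nothing in the sources says that a number shared by library names (T1-1 and S3-1, for example) pairs embryos.

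The direction of 24 of 40 members held in every alternative that gave a value (16 for 29 members, and 15 for the 11 with a mean count under 50) and that of 16 reversed in at least 1, the largest of these being Col1a2, at 1.12 with all libraries. With 1 library left out, log2 fold changes ran from -0.30 to 0.079 for Col11a1, -0.89 to 0.67 for Col13a1, -0.67 to 0.013 for Col14a1, -0.75 to 0.20 for Col16a1, -0.18 to 0.48 for Col17a1, -0.029 to 1.51 for Col1a2, -0.20 to 0.79 for Col20a1, -0.97 to 0.46 for Col23a1, -0.23 to 0.50 for Col24a1, -0.058 to 0.94 for Col26a1, -0.019 to 0.57 for Col4a2, -0.40 to 0.042 for Col4a5, -0.38 to 0.14 for Col4a6, -0.52 to 0.42 for Col5a1 and -0.014 to 0.54 for Col5a3. Against S3 alone, Col14a1 was 0.23 and Col22a1 0.25. Against S1 alone, Col16a1 was 0.12, Col23a1 -0.21, Col4a5 0.012, Col4a6 0.054, Col5a1 -0.011 and Col5a3 -0.089. The cause was not tested.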
